A study of Mus musculus with 40 samples.

Results

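TRAJ21, TRAJ17, TRAJ16, TRAJ15, TRAJ13, TRAJ12 and TRAJ11 are 7 neighbouring J segments in the 3′ part of the T cell receptor alpha (Tcra) J array. They were chosen by name and are 7 of the 43 TRAJ columns in each of 4 tables of V-J counts. TRAJ18, the J segment of the invariant natural killer T cell chain, lies between TRAJ21 and TRAJ17 and was not counted with them. On mm10 the stretch runs from 54198790 to 54207197 on chromosome 14, or 8408 bases in the RefSeq annotation of GRCm38.p6, and its last segment ends 13.3 kb before the constant region gene Trac.

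In developing T cells the Tcra locus is assembled by cutting and joining DNA, so that one TRAV segment comes to lie beside one TRAJ segment. The first joins on an allele tend to link V segments near the J array to J segments at its 5′ end, and later rounds replace them with joins of more distant V segments to J segments further 3′, toward Trac. A TRAJ segment encodes the end of the variable domain, including part of the CDR3 loop that touches the antigen. The 7 members therefore have the same role in the receptor and differ in sequence and in their place along the array.

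The series asks how a CTCF binding site at the enhancer Ea, named EACBE in the labels, acts in Tcra rearrangement; CTCF binds DNA and holds the feet of chromatin loops. Of its 40 samples, 4 were used for the counts: thymocyte RNA from the thymus of EACBE-/- mice, which lack the site, and of EACBE+/+ mice, which carry it, with 2 libraries per genotype. All were C57BL/6 mice aged 4 to 8 weeks, and the Rag deficiency and anti-CD3 treatment of other samples do not apply to them. RNA was copied by 5′ RACE, which needs no primer specific to a V segment. The labels do not say whether replicates came from separate mice or whether mice were pooled, so p-values measure only the spread between these libraries. The tables list receptor segments alone, so neither the deleted site nor any marker of thymocytes could be checked in them.

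Total counts were 19085 and 163953 in EACBE-/- replicates 1 and 2, and 10694 and 172388 in EACBE+/+ replicates 1 and 2. Replicate 2 was thus the deeper library in both genotypes. Of these, the 7 members held 1956 and 18840 in EACBE-/- and 1513 and 26108 in EACBE+/+. A count of 0 allows a share of up to 0.0281% in the shallowest library (3 counts of its total). Intervals and such limits cover counting error only, since the sources used here do not say if reads or distinct receptors were counted. In RNA of a whole thymus, fewer cells that use a segment and less receptor RNA per cell cannot be told apart.

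The first question was whether use of these J segments differed without EACBE. Use of TRAJ15, TRAJ13 and TRAJ12 fell in EACBE-/- thymocytes, by 1.43-fold, 1.76-fold and 1.73-fold in mean share. For the segments on the V side of the stretch the means were close: TRAJ21 was 1.04-fold and TRAJ17 1.12-fold lower, and neither passed the test. As a whole, the 7 segments took 10.2% and 11.5% of EACBE-/- counts, against 14.1% and 15.1% of EACBE+/+ counts, so no EACBE-/- library reached either EACBE+/+ library.

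TRAJ21 (54198790 to 54198846), the member nearest the V side, took 2.34% of counts in replicate 1 and 2.46% in replicate 2 of EACBE-/-, and 2.42% and 2.57% in EACBE+/+, in the same order of replicates as all pairs of values that follow. TRAJ17 (54201775 to 54201837) took 2.06% and 2.55% in EACBE-/- and 2.47% and 2.68% in EACBE+/+. For both segments the genotypes overlapped, since EACBE-/- replicate 2 lay above EACBE+/+ replicate 1. Their log2 changes, EACBE-/- over EACBE+/+, were -0.06 (SE 0.104, adjusted p = 0.782) for TRAJ21 and -0.16 (SE 0.145, adjusted p = 0.426) for TRAJ17 in edgeR's quasi-likelihood test. TRAJ16 (54203134 to 54203194) took 0.933% and 1.10% in EACBE-/- and 1.13% and 1.42% in EACBE+/+. Both of its EACBE-/- libraries were below both EACBE+/+ libraries, by a narrow margin, and its log2 change of -0.34 (SE 0.191) did not pass the threshold of 0.05 (adjusted p = 0.222 in edgeR).

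TRAJ15 (54204422 to 54204481) took 1.82% and 1.99% of EACBE-/- counts and 2.73% and 2.71% of EACBE+/+ counts. Its 2 libraries of each genotype lay close together and the genotypes were well apart, with a log2 change of -0.51 (SE 0.108, adjusted p = 0.0251 in edgeR). TRAJ13 (54205741 to 54205797) took 0.906% and 0.985% in EACBE-/- and 1.55% and 1.79% in EACBE+/+. This was the lowest ratio of means among the 7, with a log2 change of -0.82 (SE 0.151, adjusted p = 0.0212 in edgeR).

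TRAJ12 (54206552 to 54206610) is known from human mucosal-associated invariant T (MAIT) cells as one of the J segments of their semi-invariant chain. It took 1.71% and 1.72% of EACBE-/- counts and 3.08% and 2.84% of EACBE+/+ counts, so the EACBE-/- libraries were nearly equal and far below the others. Its log2 change was -0.79 (SE 0.106, adjusted p = 0.0149 in edgeR), and it was the only member that passed whichever of the 4 libraries was left out. Such a fit sets 1 library against 2, so its spread comes from the genotype with 2 libraries and the lone library is assumed to vary like them. TRAJ11 (54207139 to 54207197), the member nearest Trac and the least used, took 0.482% and 0.686% in EACBE-/- and 0.767% and 1.14% in EACBE+/+. The genotypes did not overlap, but the libraries of each differed so much that a log2 change of -0.71 (SE 0.304) did not pass (adjusted p = 0.140 in edgeR); without EACBE+/+ replicate 1, a fit with 1 EACBE+/+ library and the spread of the EACBE-/- libraries, it was -0.92 (adjusted p = 0.0239).

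**Figure D1:**
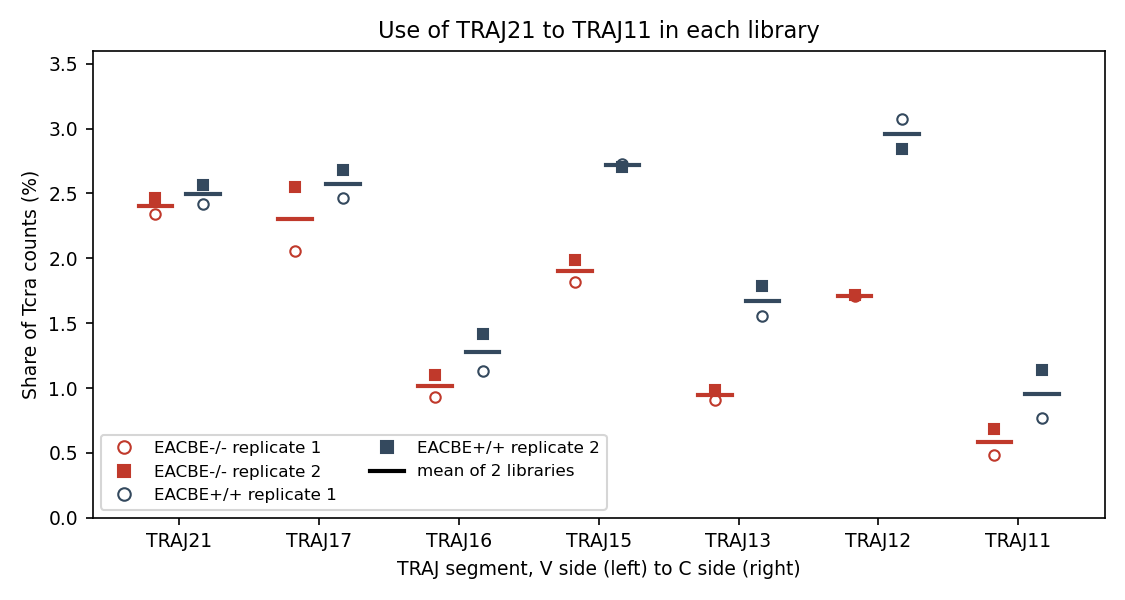
Share of all Tcra counts (%, linear axis) taken by each of the 7 J segments, ordered from the V side to the C side, in the 2 libraries of each genotype (open circles replicate 1, filled squares replicate 2, bars the mean of 2 libraries). The genotypes overlap for TRAJ21 and TRAJ17, and the EACBE-/- points lie below the EACBE+/+ points for the other 5 segments, most clearly for TRAJ12, at 1.71% and 1.72% against 3.08% and 2.84%.

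Of the 7 members, 3 fell, 0 rose and 4 did not pass the test. Over all 43 TRAJ segments tested, 18.6% fell and 27.9% changed in either direction. The median log2 change was -0.51 over the members and 0.04 over all 43. Both EACBE-/- libraries were below both EACBE+/+ libraries for 5 members, where 27.9% of all TRAJ segments showed this. All 7 were lower in EACBE-/- in both replicate numbers, against 39.5% of all TRAJ segments. The log2 ratios of shares in replicates 1 and 2 were -0.59 and -0.44 for TRAJ15, -0.78 and -0.86 for TRAJ13 and -0.85 and -0.73 for TRAJ12. For the members that did not pass they were -0.05 and -0.06 (TRAJ21), -0.26 and -0.07 (TRAJ17), -0.28 and -0.37 (TRAJ16) and -0.67 and -0.73 (TRAJ11). The count of members that fell was 1, TRAJ12 alone, without EACBE-/- replicate 1 and without EACBE+/+ replicate 2. With DESeq2's size factors the median over all 43 segments moved to -0.08, and the same 3 members passed.

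The log2 changes were graded along the stretch. They went from -0.06 at TRAJ21, 21.7 kb from Trac, through -0.16 at TRAJ17 (18.7 kb), -0.34 at TRAJ16 (17.3 kb) and -0.51 at TRAJ15 (16.0 kb), to -0.82 at TRAJ13 (14.7 kb), -0.79 at TRAJ12 (13.9 kb) and -0.71 at TRAJ11 (13.3 kb). The last 3 values lay within 1 standard error of each other, by the SE of TRAJ11. On the C side this order went on past the stretch, but not on the V side. TRAJ22, the next segment on the V side, had a log2 change of -0.24 (SE 0.221, adjusted p = 0.426 in edgeR), which is below that of TRAJ21 and turned to 0.019 without EACBE+/+ replicate 1. TRAJ9, the next one on the C side, had a log2 change of -1.17 (SE 0.186, adjusted p = 0.0150 in edgeR). TRAJ18, inside the stretch, had a log2 change of -0.37 (SE 0.147, adjusted p = 0.117 in edgeR), nearer to that of TRAJ16 than to those of TRAJ21 and TRAJ17 beside it; it passed with DESeq2 at -0.47. All 7 members had negative log2 changes under every alternative run.

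**Figure D2:**
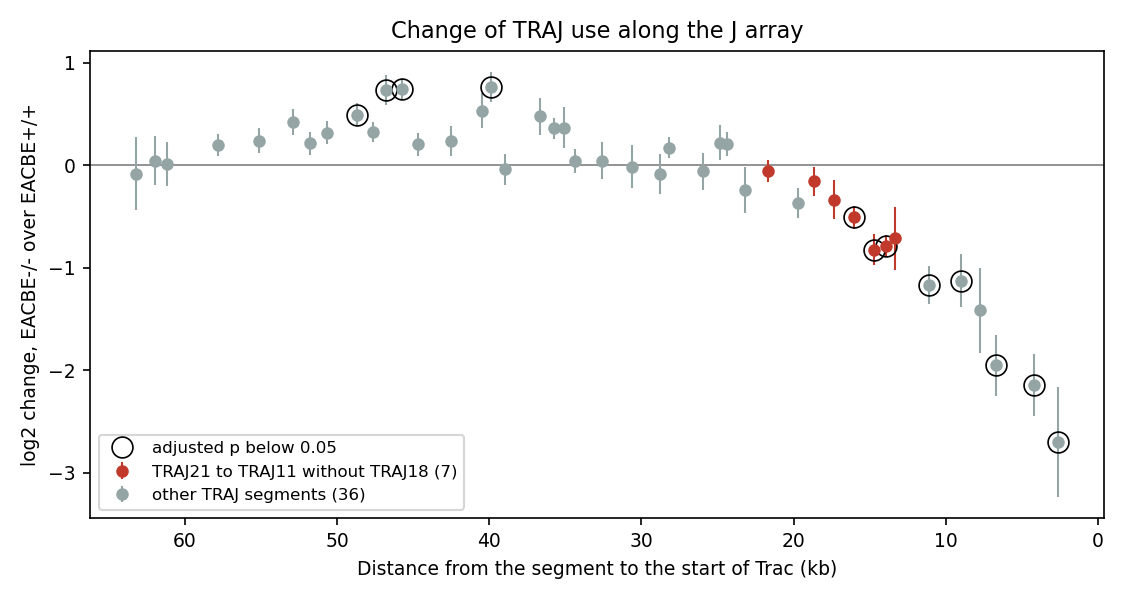
Log2 change of use (EACBE-/- over EACBE+/+, error bars SE derived from edgeR's F statistic) of 43 TRAJ segments against their distance to the start of Trac in kb, with the V side at the left. The 7 members (red) run from -0.06 at 21.7 kb to between -0.82 and -0.71 at 14.7 to 13.3 kb, with most segments on their left above 0 and larger falls on their right, and circles mark an adjusted p below 0.05.

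The order of the members by level differed between the genotypes. In EACBE+/+, TRAJ12 was the most used member, at 2.96% ± 0.165 (SD, n = 2), and ranked 10 of all 43 TRAJ segments. In EACBE-/-, it took 1.71% ± 0.00623 (SD, n = 2), was the fourth of the members and ranked 29 of 43. TRAJ21 led the members in EACBE-/-, at 2.40% ± 0.0867, and was the fourth in EACBE+/+, at 2.49% ± 0.103 (SD, n = 2 each). Neighbours in these orders whose shares overlapped across libraries were TRAJ21 with TRAJ17 and TRAJ16 with TRAJ13 in EACBE-/-, and TRAJ17 with TRAJ21 and TRAJ16 with TRAJ11 in EACBE+/+. Within single libraries, TRAJ21 and TRAJ17 changed places between the EACBE-/- libraries, whereas in the other 3 pairs the first named was the higher in both libraries of its genotype.

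Within the members' own joins, the make-up leaned to the V side in EACBE-/-. TRAJ21 held 22.9% and 21.4% of them in EACBE-/-, against 17.1% and 16.96% in EACBE+/+. TRAJ17 held 20.1% and 22.2% in EACBE-/- and 17.4% and 17.7% in EACBE+/+. Both segments thus held a larger part of the stretch in each EACBE-/- library than in either EACBE+/+ library. TRAJ12 held 16.7% and 14.9% in EACBE-/- and 21.7% and 18.8% in EACBE+/+, and TRAJ13 held 8.84% and 8.57% in EACBE-/- and 11.0% and 11.8% in EACBE+/+. TRAJ15 held 17.7% and 17.3% in EACBE-/- and 19.3% and 17.9% in EACBE+/+. All 3 held less in each EACBE-/- library than in either EACBE+/+ library, though by little for TRAJ15. These parts have a fixed total, so higher and lower parts are not separate results. For TRAJ16 and TRAJ11 the genotypes overlapped.

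As a sum, the members' share was 10.9% ± 0.878 in EACBE-/- and 14.6% ± 0.705 in EACBE+/+ (SD, n = 2 each), a difference of -3.78 percentage points. In EACBE-/- the 95% Wilson intervals were 9.83 to 10.7% in replicate 1 and 11.3 to 11.6% in replicate 2. In EACBE+/+ they were 13.5 to 14.8% in replicate 1 and 15.0 to 15.3% in replicate 2. The two-sided exact permutation test gave p = 0.33, the smallest that 2 libraries against 2 allow. With each V-J pair that had a count counted once, the difference was -0.363 points. In replicate 2, 694 of 735 possible pairs of a member with a V segment listed in all tables had a count in EACBE-/- and 717 in EACBE+/+. Nearly every possible pair thus entered this measure once in replicate 2 of both genotypes. That did not hold in replicate 1, where 497 of the 735 had a count in EACBE-/- and 470 in EACBE+/+. Why the difference was smaller by this measure was not tested.

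The stretch was next set against its neighbours on either side. Relative to TRAJ31 to TRAJ22 (8 segments), the members' summed count gave log2 ratios of -1.27 and -0.94 in EACBE-/- and -0.85 and -0.45 in EACBE+/+. Relative to TRAJ9 to TRAJ2 (6 segments), the log2 ratios were 1.78 and 1.54 in EACBE-/- and 0.85 and 0.24 in EACBE+/+. The members were thus lower in EACBE-/- relative to the segments before them, by a difference of -0.46 on the log2 scale, and higher relative to those after them, by 1.12, with no overlap of the genotypes in either ratio. Both exact permutation tests gave p = 0.33, the smallest possible with 2 libraries against 2. Of the 8 segments before the stretch none passed the test, with a median log2 change of 0.01, and of the 6 after it 5 fell, with a median of -1.68.

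The second question was which V segments the members were joined to. The 130 annotated TRAV genes were split in chromosome order into a distal part (44, farthest from the J array), a central part (43) and a proximal part (43), of which 38, 35 and 33 are listed in the tables. Copies of one family can lie in different parts, as do TRAV12D-3 (distal), TRAV12N-3 (central) and TRAV12-3 (proximal), so the part a join is counted in depends on how near-identical copies were told apart, which the sources used here do not say. The lower share of the members in EACBE-/- was seen in joins of distal and central V segments. Of the joins made by distal V segments, 13.5% and 16.3% used a member in EACBE-/-, against 21.0% and 20.8% in EACBE+/+. Of those made by central V segments, 13.2% and 15.0% did so in EACBE-/-, against 20.5% and 20.9% in EACBE+/+. In both parts the EACBE-/- libraries lay well below the EACBE+/+ libraries, at 1.40-fold and 1.47-fold lower means.

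Joins of proximal V segments showed no such gap. A member was used in 6.83% and 8.51% of them in EACBE-/- and in 6.53% and 9.64% in EACBE+/+, so that the genotypes overlapped and the difference of -0.417 points was below the SDs of 1.19 in EACBE-/- and 2.20 in EACBE+/+ (n = 2 each). The gap between the distal and the proximal part was 6.71 and 7.77 points in EACBE-/- and 14.4 and 11.2 points in EACBE+/+. That between the central and the proximal part was 6.37 and 6.48 points in EACBE-/- and 13.96 and 11.3 points in EACBE+/+. Neither gap overlapped between the genotypes, and the exact permutation test of each, added after the data were seen, gave p = 0.33, the smallest it can reach here.

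**Figure D3:**
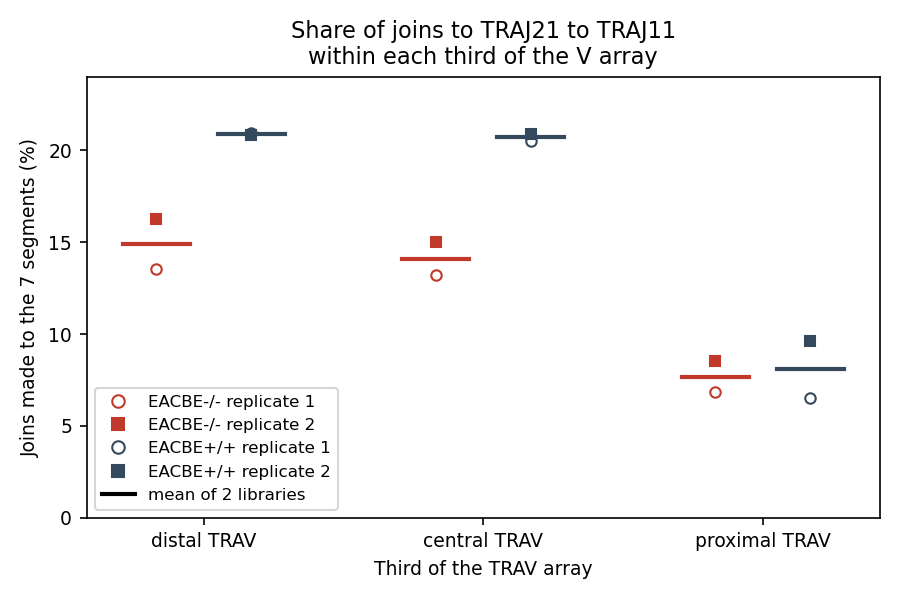
Share (%, linear axis) of the joins of distal, central and proximal V segments that used one of the 7 J segments, in the 2 libraries of each genotype (open circles replicate 1, filled squares replicate 2, bars the mean of 2 libraries). The EACBE-/- libraries lie between 13.2% and 16.3% and the EACBE+/+ libraries between 20.5% and 21.0% for distal and central V segments, while they overlap for proximal ones.

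The members differed in this too. TRAJ12 took 2.45% and 2.50% of distal joins in EACBE-/- and 4.79% and 3.79% in EACBE+/+, and 0.939% and 1.22% of proximal joins in EACBE-/- against 1.29% and 1.77% in EACBE+/+. It was thus lower in each EACBE-/- library for V segments of both parts. TRAJ13 took 0.949% and 1.41% of distal joins in EACBE-/- and 2.28% and 2.65% in EACBE+/+, but 0.699% and 0.685% of proximal joins in EACBE-/- and 0.663% and 0.991% in EACBE+/+, where the genotypes overlapped. TRAJ21 overlapped in all 3 parts. Within the distal part, 5 of 7 members had both EACBE-/- libraries below both EACBE+/+ libraries, where 27.9% of all TRAJ segments did; within the central part 6 of 7, against 30.2%; and within the proximal part 1 of 7, against 18.6%. Both EACBE-/- libraries were above both EACBE+/+ libraries for 0 of 7 members in each part, where 21 of 43 TRAJ segments showed this in the distal, 18 in the central and 10 in the proximal part.

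Seen from the members' side, 43.0% and 36.7% of their joins had a distal V segment in EACBE-/- and 48.6% and 39.8% in EACBE+/+, which overlapped. A central V segment was found in 25.1% and 22.5% in EACBE-/- and in 29.9% and 29.9% in EACBE+/+, and a proximal one in 32.0% and 40.8% in EACBE-/- and in 21.5% and 30.3% in EACBE+/+. The proximal share was thus higher in each EACBE-/- library, though EACBE-/- replicate 1 and EACBE+/+ replicate 2 were close. The difference was 10.5 points (exact permutation p = 0.33, the smallest possible). In the joins of the 36 other TRAJ segments the proximal share was 49.8% and 58.1% in EACBE-/- and 50.7% and 51.8% in EACBE+/+, which overlapped, and the central share was 18.8% and 16.9% in EACBE-/- and 19.1% and 20.7% in EACBE+/+, which did not. The higher proximal share was not particular to the members: among the joins of TRAJ9 to TRAJ2 it was 33.7% and 42.8% in EACBE-/- and 23.1% and 25.6% in EACBE+/+, a difference of 13.9 points.

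The members' joins were spread over many V segments. No V-J pair made up more than 1.65% of them in any library, the value of TRAV3D-3 with TRAJ12 in EACBE+/+ replicate 1. The 5 V segments with the highest mean share of these joins were TRAV3D-3, TRAV12D-3, TRAV7-4, TRAV6-6 and TRAV13D-2. The part of the members' joins that a V segment holds also moves with its use over all J segments. TRAV3D-3 held 2.61% and 2.96% of the members' joins in EACBE-/- and 5.35% and 4.60% in EACBE+/+, so it was lower in each EACBE-/- library. With all J segments TRAV3D-3 was lower too, at 289 of 19085 and 2438 of 163953 counts in EACBE-/- and 357 of 10694 and 5107 of 172388 in EACBE+/+. Of its own joins, 17.6% and 22.9% went to the members in EACBE-/- and 22.7% and 23.5% in EACBE+/+, which overlapped. TRAV12D-3 held 5.06% and 2.90% in EACBE-/- and 4.69% and 2.72% in EACBE+/+, which followed the replicate number more than the genotype. TRAV7-4 held 3.17% and 4.51% in EACBE-/- and 3.24% and 3.86% in EACBE+/+, with overlap. TRAV6-6, a proximal segment, held 3.78% and 4.83% in EACBE-/- and 2.91% and 3.24% in EACBE+/+, and was higher in each EACBE-/- library. TRAV13D-2 held 2.25% and 3.13% in EACBE-/- and 3.44% and 3.46% in EACBE+/+, and was lower in each. All 5 belong to families with duplicated copies in the tables, such as TRAV7D-4 and TRAV7N-4 beside TRAV7-4, and their values are uncertain, since the sources used here do not say how near-identical copies were counted.

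Within single V segments the share of joins to the members was tested for 102 V segments, with each segment's own count as the base, so that a change of the V segment itself does not enter. In edgeR's quasi-likelihood test 0 of 102, or 0%, passed, with a smallest adjusted p of 0.188, and 18 had an unadjusted p below 0.05, of which 17 were lower and 1 higher in EACBE-/-. The median log2 change was -0.34. In both replicate numbers 66 were lower and 8 higher in EACBE-/-. Both EACBE-/- libraries were below both EACBE+/+ libraries in 48 of the 102, or 47.1%, and above them in 5. By part, this held for 19 lower and 1 higher of 36 distal, 22 lower and 0 higher of 33 central, and 7 lower and 4 higher of 33 proximal V segments. TRAV6-6 made 11.1% and 12.4% of its joins to the members in EACBE-/- and 14.8% and 15.6% in EACBE+/+; it had a log2 change of -0.37 (SE 0.139, adjusted p = 0.277 in edgeR), although it held a larger part of the members' joins in EACBE-/-.

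**Figure D4:**
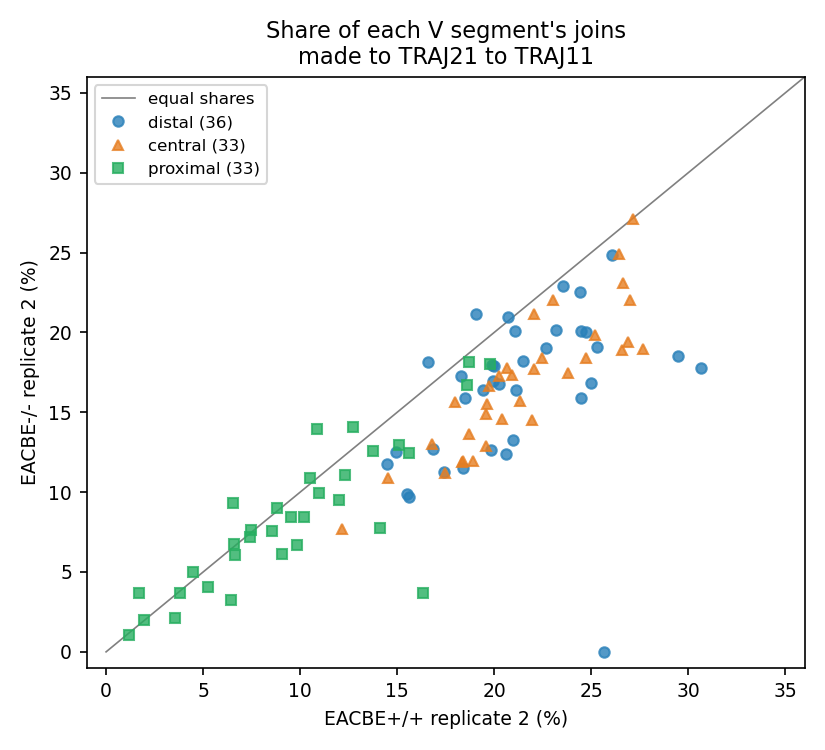
Share (%) of the joins of each of 102 V segments that used one of the 7 J segments in the deeper replicate 2, EACBE-/- (vertical axis) against EACBE+/+ (horizontal axis), by part of the V array, with a line of equal shares. Of the 102 V segments 89 lie below the line, and the distal and central ones sit further right than most proximal ones; the point at 0% is TRAV2, with 12 counts in that EACBE-/- library.

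Among V-J pairs, 394 pairs of the members passed the filter on low counts, of 735 possible. Of these, 10 fell and 0 rose in edgeR's test over all 2416 pairs tested. That is 2.54% of the members' pairs, near the 2.94% of all pairs that fell and the 3.27% that changed in either direction, so the count of calls says nothing particular about the members. The count was 4 with DESeq2, which gave an adjusted p for 415 pairs of the members. It was 0 in edgeR without EACBE-/- replicate 2 (10 of 110 pairs with an unadjusted p below 0.05) and 0 without EACBE+/+ replicate 2 (8 of 94). The direction of the pairs was more uneven: 262 of the 394, or 66.5%, had a negative log2 change, against 46.0% of all pairs. The median log2 change was -0.30 over the members' pairs and 0.09 over all pairs, and by segment it was -0.01 for TRAJ21, 0.08 for TRAJ17, -0.18 for TRAJ16, -0.31 for TRAJ15, -0.54 for TRAJ13, -0.63 for TRAJ12 and -0.59 for TRAJ11. Each median was the same with pairs at 0 in one genotype set to a bound of 3 counts.

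Of the 10 pairs that fell, 5 used TRAV1, the V segment of the mouse MAIT cell chain and the outermost one of the array (52427967 to 52428876). Over all J segments, 20 of the 79 pairs that changed in either direction used TRAV1, 15 of them outside the members, so called TRAV1 pairs were not particular to the members. TRAV1 with TRAJ12 had 0 counts in both EACBE-/- libraries and 4 and 124 counts in EACBE+/+, which is at least 42.7-fold lower when counts are pooled by genotype and the EACBE-/- pool is set to 3 counts (adjusted p = 2.65e-05 in edgeR). With that bound TRAV1 with TRAJ15, at 0 and 0 against 3 and 118 counts, was at least 40.3-fold lower (adjusted p = 5.32e-05 in edgeR), and TRAV1 with TRAJ16, at 0 and 0 against 2 and 62, at least 21.3-fold lower (adjusted p = 0.00127). TRAV1 as a whole was lower too: it had 2 and 27 counts with all J segments in EACBE-/- and 97 and 2347 in EACBE+/+. The TRAV1 pairs at 0 in both EACBE-/- libraries passed the filter on low counts only through EACBE+/+. A fall was thus the only direction they could show, and their calls are no separate support for it.

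The few joins of TRAV1 to a member in EACBE-/- were to the first and second segments on the V side. TRAV1 with TRAJ21 had 1 and 2 counts in EACBE-/- and 6 and 161 in EACBE+/+ (adjusted p = 0.000106 in edgeR), and TRAV1 with TRAJ17 had 0 and 3 against 3 and 135 (adjusted p = 0.000200). With so few EACBE-/- counts, both of these pairs also passed the filter on low counts through EACBE+/+. With the other 5 members TRAV1 had 0 counts in EACBE-/-, which at TRAV1 totals of 2 and 27 counts cannot show a difference between members. Of its own joins, TRAV1 made 1 of 2 and 5 of 27 to the members in EACBE-/-, and 19 of 97 and 692 of 2347 in EACBE+/+, and its share of joins to them changed by -0.34 on the log2 scale in the test within V segments (adjusted p = 0.739 in edgeR). TRAV2 with TRAJ21, at 0 and 0 against 2 and 24 counts, was at least 8.66-fold lower (adjusted p = 0.0488 in edgeR), and lost its call without EACBE-/- replicate 1. This pair, at 0 in both EACBE-/- libraries, passed the filter only through EACBE+/+ as well, so it could only fall. TRAV2 as a whole was lower too: it had 1 and 12 counts with all J segments in EACBE-/- and 36 and 553 in EACBE+/+. TRAV1 with TRAJ16 lost its call with DESeq2 (adjusted p = 0.132). The calls of all member pairs, the other TRAV1 pairs included, rested on replicate 2 of both genotypes, as given above.

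The number of V partners was compared at equal depth, as the number expected when the joins of a member are thinned to 81 counts. The mean over the 7 members was 44.6 and 45.5 V segments in EACBE-/- and 45.1 and 47.0 in EACBE+/+. The genotypes overlapped, and the difference of -0.981 lay between the SDs of 0.676 in EACBE-/- and 1.34 in EACBE+/+ (n = 2 each, exact permutation p = 0.667). By segment, TRAJ17 had 45.2 and 46.0 V partners in EACBE-/- and 47.3 and 47.4 in EACBE+/+, and TRAJ15 had 46.6 and 45.6 in EACBE-/- and 43.7 and 46.9 in EACBE+/+. Both EACBE-/- libraries lay below both EACBE+/+ libraries for TRAJ21, TRAJ17, TRAJ16 and TRAJ13, by very little for TRAJ21, and the genotypes overlapped for TRAJ15, TRAJ12 and TRAJ11. The differences of means ran from -2.80 for TRAJ16 to 0.732 for TRAJ15, and the same measure was not computed for the other TRAJ segments. Unthinned, TRAJ11 was seen with 46 and 97 V segments in EACBE-/- and 44 and 104 in EACBE+/+, which follows the depth of the libraries.

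The TRAJ segments whose use was most like the members' summed share over the 4 libraries, by Euclidean distance of centred log2 shares, were TRAJ18 (0.288), TRAJ28 (0.418) and TRAJ32 (0.506). TRAJ18 took 1.37% and 1.39% in EACBE-/- and 1.97% and 1.63% in EACBE+/+. TRAJ28 took 0.796% and 0.739% in EACBE-/- and 0.851% and 0.786% in EACBE+/+, which overlapped. TRAJ32 took 2.93% and 3.11% in EACBE-/- and 3.14% and 2.78% in EACBE+/+, which overlapped as well. The log2 changes of TRAJ28 and TRAJ32 were -0.09 and 0.04 and neither passed the test, so a small distance here does not mean a shared fall.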

How the data were processed

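Per the labels' protocols, thymocyte RNA was reverse transcribed with oligo(dT) and a template-switching adapter (5′ RACE). The authors deposited 1 table of whole-number counts per library, V segments against J segments; the sources used here name neither the segment caller nor what was counted (reads or receptors), and if reads were counted, a transcript made in many copies weighs more. The deposited boundary lists hold the authors' boundary score per 20 kb bin of chromosome 14 on mm10, per the file headers, 1 list per genotype. The submitters' processing notes name Bowtie2 2.3.4.3 and cutadapt 0.4.4 among the tools of the series, without their roles.

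Counts were summed per TRAJ column over all V rows and tested with edgeR 4.0.16 (R 4.3.3; glmQLFit, glmQLFTest, library sizes set to the table totals, normalization factors of 1, filterByExpr with a minimum count of 10 and a minimum total of 15) over all 43 TRAJ segments, all 2416 V-J pairs that passed, and 102 V segments with the V segment's own count as offset, each adjusted by Benjamini-Hochberg with a threshold of 0.05. This test gives no SE, so each SE printed with it is the absolute log2 change divided by the square root of its F statistic. Pairs and single V segments used the 105 V segments listed in all 4 tables. All 43 TRAJ and 111 V names matched RefSeq symbols (GRCm38.p6). Shares were compared by two-sided exact permutation tests, and intervals are 95% Wilson intervals. Each fit was tested on simulated data. DESeq2 1.42.0, TMM factors, no filter, a replicate block and each library left out were alternatives. The rest was done in Python 3.11.15 with scipy 1.17.1 and pandas 2.3.3.

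The members and lists were chosen with earlier results of these data known. Named were the 7 members, TRAJ22, TRAJ18 and TRAJ9, the 5 V segments with most of the members' joins, TRAV1, up to 5 V segments past the threshold (there were 0), the 6 member pairs past it with the largest log2 changes, and the 3 nearest TRAJ profiles; TRAV2 as the point at 0% in the plot of V segments was named after its value was seen.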

Additional observations from a re-analysis of the deposited data

How the results depend on the processing

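All 7 members kept a negative log2 change under every alternative run. The count of members that fell was 3 with TMM factors, DESeq2, no filter and V segments listed in all tables, and ranged from 1 to 3 with a library left out; that of all TRAJ segments called was 12, against 15 with DESeq2 (10 lower and 5 higher) and 13 with V segments listed in all tables, and ranged from 6 to 13 with a library left out, where 1 library stands against 2. TRAJ13 lost its call without EACBE-/- replicate 1 or 2 or EACBE+/+ replicate 2, and TRAJ15 without EACBE-/- replicate 1 or either EACBE+/+ library (adjusted p from 0.0903 to 0.220 in edgeR). The TRAJ22 change of -0.24 ranged from -0.49 to 0.019 with a library left out, and was positive without EACBE+/+ replicate 1 alone. Calls among the members' pairs ranged from 0 to 15 with a library left out and were 4 with DESeq2 and 18 without the filter, against 10; the cause was not tested. With each pair counted once, the difference of summed shares was -0.363 points, and among the members' joins that of central V segments was -0.579 and that of proximal ones 3.89 points. The number of V partners differed by 0.286 unthinned, against -0.981. With a library left out, the differences ranged from -4.40 to -3.16 points for the summed share, -0.66 to -0.26 and 0.81 to 1.42 for the log2 ratios to the segments before and after, -8.75 to 0.0188, -7.40 to -4.88 and 6.08 to 14.9 points for distal, central and proximal V segments, -7.20 to -3.96 points for the gap between distal and proximal joins, and -1.93 to -0.0359 V partners.

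The replicate numbers are shared by the genotypes, and nothing in the labels ties them to a mouse or a day. Over the 43 TRAJ segments, deviations of same-numbered libraries correlated (r = 0.79, 2 pairs). With the replicate number as a block, 32 TRAJ segments were called (13 lower and 19 higher), 5 members fell, among them TRAJ16 and TRAJ11 (adjusted p = 0.000188 and 5.86e-11 in edgeR), 85 of the members' pairs were called (78 lower and 7 higher), and 7 V segments passed in the test within V segments, all lower. With so few libraries a block leaves each segment or pair little spread of its own, so these p-values rest largely on spread pooled over segments or pairs. Without EACBE-/- replicate 2, 110 of the members' pairs passed the filter, and without EACBE+/+ replicate 2, 94, against 394.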

Other observations

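The deposited boundary lists come from 1 chromatin conformation library per genotype, made from EACBE-/-Rag1-/- and EACBE+/+Rag1-/- thymocytes after anti-CD3 treatment, so there is no replicate check. No listed boundary bin of 20 kb overlapped the stretch from TRAJ21 to TRAJ11 in either list. The nearest bin on the V side was the same in both, at 54060001 to 54080000 on chromosome 14 (mm10), with the authors' score of 0.632 in EACBE-/-Rag1-/- and 0.437 in EACBE+/+Rag1-/-. The nearest bin on the C side was 54260001 to 54280000 in EACBE-/-Rag1-/-, which starts 52.8 kb after TRAJ11, and 54240001 to 54260000 in EACBE+/+Rag1-/-, which starts 32.8 kb after it. The lists differ by 1 bin there, and whether that is more than the spread between libraries cannot be told from 1 library per genotype. They also differ in length, with 533 boundaries on chromosome 14 in EACBE-/-Rag1-/- and 400 in EACBE+/+Rag1-/-.

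TRDV segments, the V segments of the delta chain, are listed in replicate 2 only. They were joined to the 7 members in 21 of 18840 counts in EACBE-/- and 32 of 26108 in EACBE+/+, or 0.111% and 0.123% of the members' joins, while TRDV segments held 1.89% of all counts in EACBE-/- and 2.01% in EACBE+/+.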
